A study of Mus musculus with 28 samples.

Results

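The replication-dependent histone genes were followed across libraries of EPCAM-positive mouse lung cells, labelled as alveolar type 2 (AT2) cells. Yap had been activated or removed, and each line had controls. The family was taken as every gene symbol in both count tables that starts with Hist1h, Hist2h, Hist3h or Hist4h and has at least 20 counts over the 19 RNA libraries. Of 68 such symbols 61 passed, out of 23478 gene rows in each table. They comprise 6 H1, 14 H2A, 17 H2B, 12 H3 and 12 H4 genes, of which 48 lie in the Hist1 cluster on chromosome 13, 9 in Hist2 on chromosome 3, 3 in Hist3 on chromosome 11 and 1 in Hist4 on chromosome 6. The 7 symbols left out had 4 counts (Hist1h2aa, Hist1h4m), 3 counts (Hist1h2ao) or 0 counts (Hist1h2ap, Hist1h2bq, Hist1h2br, Hist2h2aa1) over all libraries. The genes closest above the minimum were Hist1h1t, the testis form of H1, with 36 counts, and Hist1h3g with 91. All 61 were matched to an entry of the RefSeq gene table.

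Alleles were recombined at postnatal day 3 and EPCAM-positive lung cells were collected at postnatal day 14. The Yap active mice carried Stk3flox/flox/Stk4flox/flox SftpcCreert2. Deletion of Stk3 and Stk4, the Hippo kinases that restrain Yap, activates it, and the Sftpc promoter limits the inducible Cre to surfactant-producing epithelium. Their controls carried Stk3flox/flox/Stk4flox/flox without Cre. The Yap deleted mice carried Yapflox/flox SftpcCreert2, and their controls Yapflox/flox without Cre. RNA libraries numbered 6 Yap active, 4 Yap active control, 5 Yap deleted and 4 Yap deleted control, beside 9 ATAC-seq libraries. The labels do not say whether replicates of a group came from separate mice, so the tests measure only the spread between these libraries.

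Replication-dependent histones package newly copied DNA, and their genes are transcribed mainly in S phase of the cell cycle. Their messenger RNAs end in a stem-loop held by the stem-loop binding protein Slbp instead of a poly(A) tail. The libraries here were made from poly(A)-selected RNA, which retains such messages poorly. A few members (Hist1h1c, Hist1h2bc and Hist2h2be among them) are known to make polyadenylated forms as well. Each library is therefore described beside Mki67, a marker of dividing cells, and Rpph1, the RNA component of ribonuclease P, which has no poly(A) tail. How much division and how much retention of RNA without a tail contribute to a histone level was not tested. In these bulk samples a change in the number of expressing cells and a change in RNA per cell cannot be told apart.

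Promoters of the family share short elements, and 55 of the 61 members had an entry in the RefSeq promoter table (GRCm38.p6, the mm10 build of the deposited region files). The CCAAT box (letters CCAAT, either strand) occurred in the 250 bases upstream of the start of 45 of 55 members (81.8%), against 34.5% of all 27025 promoters. It was found for every H1, H2A and H2B promoter but for 3 of 11 H4 promoters (27.3%). The TATA box letters TATAAA occurred in 27 of 55 (49.1%) against 13.0%, and the octamer ATTTGCAT in 12 of 55 (21.8%) against 1.61%. The octamer promoters were 6 H2A and 6 H2B genes, with none among H1, H3 and H4. The letters of a CCAAT match can overlap those of an octamer match, and a match is a string, not a bound site. In 7 places an H2A and an H2B gene start back to back with 163 to 248 bases between them. The 150 bases upstream of 6 members are given 5′ to 3′ on the strand of the gene, with the letters of the CCAAT box, the TATA box and the octamer (or their reverse complements) in capitals. Hist1h2ag and Hist1h2bj are a divergent pair whose windows overlap, Hist1h2bg holds all 3 elements, Hist3h2a and Hist1h1c are the members with the most counts, and Hist1h4a has the opened region with the highest score.

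Hist1h2ag, chr13:22042950-22043099, minus strand: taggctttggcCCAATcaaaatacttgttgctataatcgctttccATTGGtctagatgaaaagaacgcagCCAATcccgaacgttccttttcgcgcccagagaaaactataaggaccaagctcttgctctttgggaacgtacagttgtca

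Hist1h2bj, chr13:22043048-22043197, plus strand: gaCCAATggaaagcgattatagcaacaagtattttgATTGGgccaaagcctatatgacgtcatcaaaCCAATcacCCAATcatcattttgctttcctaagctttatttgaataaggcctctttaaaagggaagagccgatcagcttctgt

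Hist1h2bg, chr13:23571250-23571399, plus strand: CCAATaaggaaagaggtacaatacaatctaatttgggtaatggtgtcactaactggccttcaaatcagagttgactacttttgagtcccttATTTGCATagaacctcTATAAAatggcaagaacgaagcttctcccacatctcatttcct

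Hist3h2a, chr11:58954535-58954684, plus strand: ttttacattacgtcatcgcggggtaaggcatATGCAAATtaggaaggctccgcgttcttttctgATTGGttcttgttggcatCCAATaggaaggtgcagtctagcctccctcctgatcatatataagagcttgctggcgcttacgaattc

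Hist1h1c, chr13:23738657-23738806, plus strand: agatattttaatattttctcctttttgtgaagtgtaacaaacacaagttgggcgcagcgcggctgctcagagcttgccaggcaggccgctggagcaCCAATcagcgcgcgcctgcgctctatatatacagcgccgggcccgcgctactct

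Hist1h4a, chr13:23761250-23761399, minus strand: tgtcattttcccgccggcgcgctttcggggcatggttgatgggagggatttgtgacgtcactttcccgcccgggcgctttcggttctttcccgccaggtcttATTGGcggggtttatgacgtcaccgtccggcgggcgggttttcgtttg

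Depth was 34979553 to 43544559 counts per library in the Yap active table and 31947748 to 42924739 in the Yap deleted table, and the 61 members took 0.0142 to 0.0634% of a library. Summed AT2 markers (8 genes) were 23567 to 131831 CPM (counts scaled to a common library size) over the libraries, so the labelled cell type was present in each. The header of the Yap active table lists its columns in 2 runs, first Yap active replicates 2 to 6 with control 4, then controls 1 to 3 with Yap active replicate 1. The labels name no batch, and group and run coincide in part. Yap1 was 77.1 to 138 CPM in Yap deleted libraries and 112 to 205 in their controls, Stk3 31.7 to 51.1 in Yap active and 33.98 to 56.6 in controls, and Stk4 79.1 to 128 and 108 to 120. Esr1, whose hormone-binding domain is part of the inducible Cre, went against the labels in 3 libraries. It was 2.03 CPM in the library labelled Yap active 1, 165 in that labelled Yap active control 2 and 82.4 in that labelled Yap deleted control 2, against 213 to 523 in the other libraries with Cre and 0.929 to 3.93 in the other controls. Yap deleted controls 1 and 2 also held more endothelial RNA, with the 7 endothelial markers summing to 1743 and 1442 CPM, against 22.9 to 277 in the Yap active table. They held more leukocyte RNA as well, with Ptprc at 55.2 and 179 CPM, against 0.434 to 19.4 in the other libraries. CPM values throughout use one scaling over all 19 libraries by edgeR's trimmed mean of M-values (TMM).

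A handful of members carried most of the histone reads. Of 177558 member counts, 69.2% fell on 4 genes. They were Hist1h1c (58255 counts, chr13:23738807-23739531), Hist3h2a (27486, chr11:58954685-58955192), Hist1h2bc (21269, chr13:23684199-23692480) and Hist2h2be (15940, chr3:96221072-96223738), each position being the RefSeq gene span in GRCm38.p6. Adding Hist1h2ag, Hist2h3c1, Hist1h2bg and Hist2h3c2 brought the share to 79.1%. At the other end, 37 members averaged under 1 CPM, and 43 had a count in every library. Per kilobase of annotated gene span, mean levels were 113.5 CPM for Hist1h1c, a linker histone, 75.4 for Hist3h2a, 19.6 for Hist1h2ag, 11.8 for Hist1h2bg, 9.53 for Hist2h3c1 and 4.51 for Hist1h4h, the H4 member with the most counts. Hist2h2be and Hist1h2bc came to 8.33 and 3.58 on that scale, because their annotated spans (2667 and 8282 bases) include far more than a coding exon. The family's order by raw counts is thus not its order per length.

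The core histone H2A genes of the Hist1 cluster varied widely between libraries. The 10 Hist1 H2A members summed to 46.3, 58.2, 32.8, 60.8 and 139 CPM in Yap active replicates 2 to 6 and to 9.97 CPM in the library labelled Yap active 1. In the Yap active controls 1 to 4 the sum was 10.9, 4.78, 5.75 and 90.5 CPM. In the Yap deleted libraries 1 to 5 it was 43.9, 22.1, 24.5, 16.6 and 8.95 CPM, and in their controls 12.4, 19.3, 14.3 and 14.6 CPM. Group means were 57.8 ± 43.9 CPM (SD, n = 6) for Yap active and 27.98 ± 41.8 (SD, n = 4) for its controls, and 23.2 ± 13.0 (SD, n = 5) for Yap deleted and 15.2 ± 2.95 (SD, n = 4) for its controls. Both pairs of groups overlapped, whereas the first column run (32.8 to 139 CPM) lay wholly above the second (4.78 to 10.9 CPM).

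**Figure D1:**
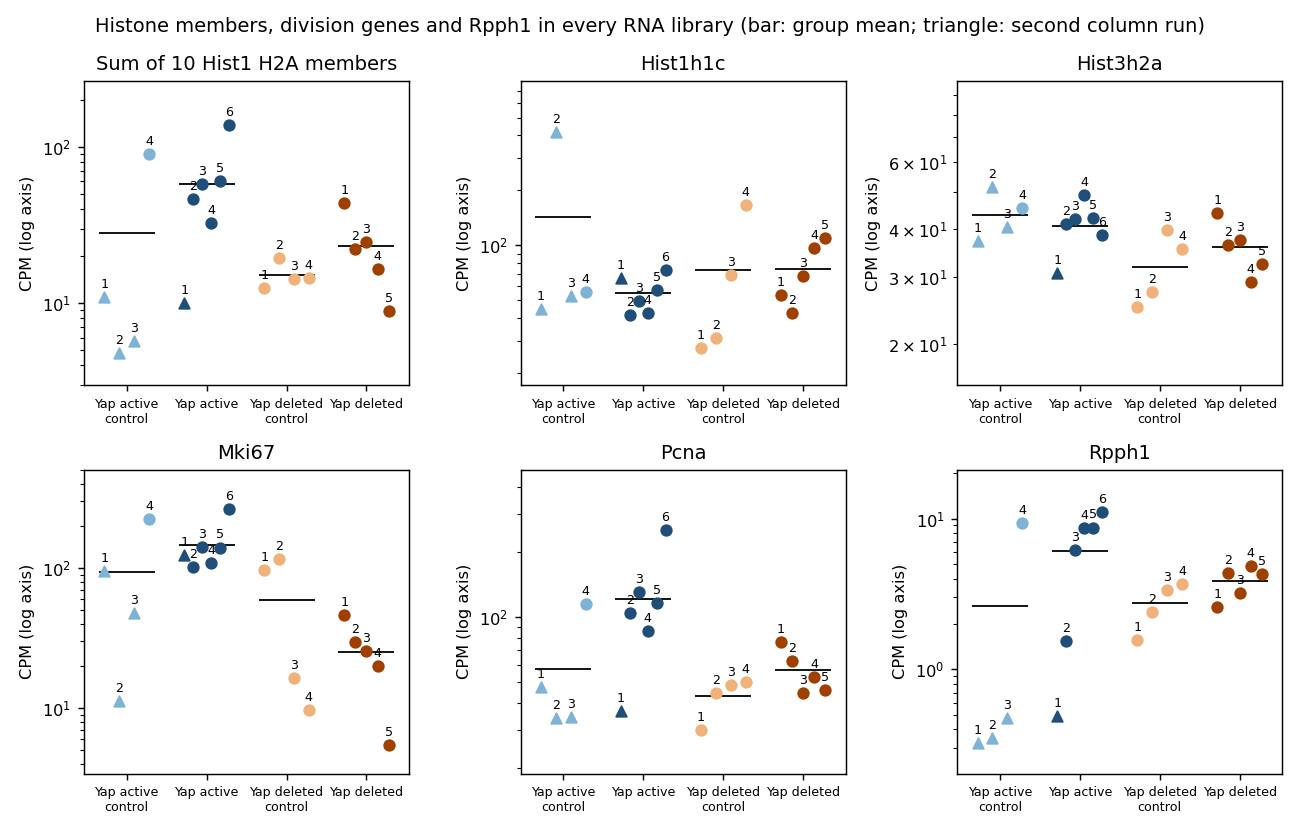
CPM (log axes) of the 10 Hist1 H2A members summed, of Hist1h1c and Hist3h2a, and of Mki67, Pcna and Rpph1 in every RNA library, by group; numbers are replicates, bars are group means, and triangles mark the second run of columns in the Yap active table. The triangles lie lowest for the Hist1 H2A sum, Pcna and Rpph1 within the Yap active table, while Hist3h2a stays within 24.9 to 51.7 CPM in all 19 libraries.

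Hist1h2ag (chr13:22042478-22042949) had the most counts of the Hist1 H2A genes, 6187 in all. Its level was 11.5 to 53.4 CPM in the 6 libraries of the first run and 0.917 to 3.48 CPM in the 4 of the second. In the Yap deleted table it was 0.621 to 3.25 CPM in Yap deleted libraries and 0.248 to 2.28 CPM in controls. The other Hist1 classes moved over a narrower range. Hist1 H2B members outside Hist1h2bc summed to 20.0 ± 5.01 CPM (SD, n = 6) in the first run and 10.8 ± 2.78 (SD, n = 4) in the second. Hist1 H4 members summed to 9.92 ± 3.16 and 5.32 ± 1.65 CPM, and Hist1 H3 members to 4.596 ± 2.60 and 1.58 ± 0.226 CPM. The runs did not overlap for H2B (14.6 to 28.6 against 7.83 to 14.5 CPM) or H3 (2.08 to 8.46 against 1.32 to 1.81 CPM), while for H4 they did (6.78 to 14.8 against 3.94 to 7.67 CPM).

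**Figure D2:**
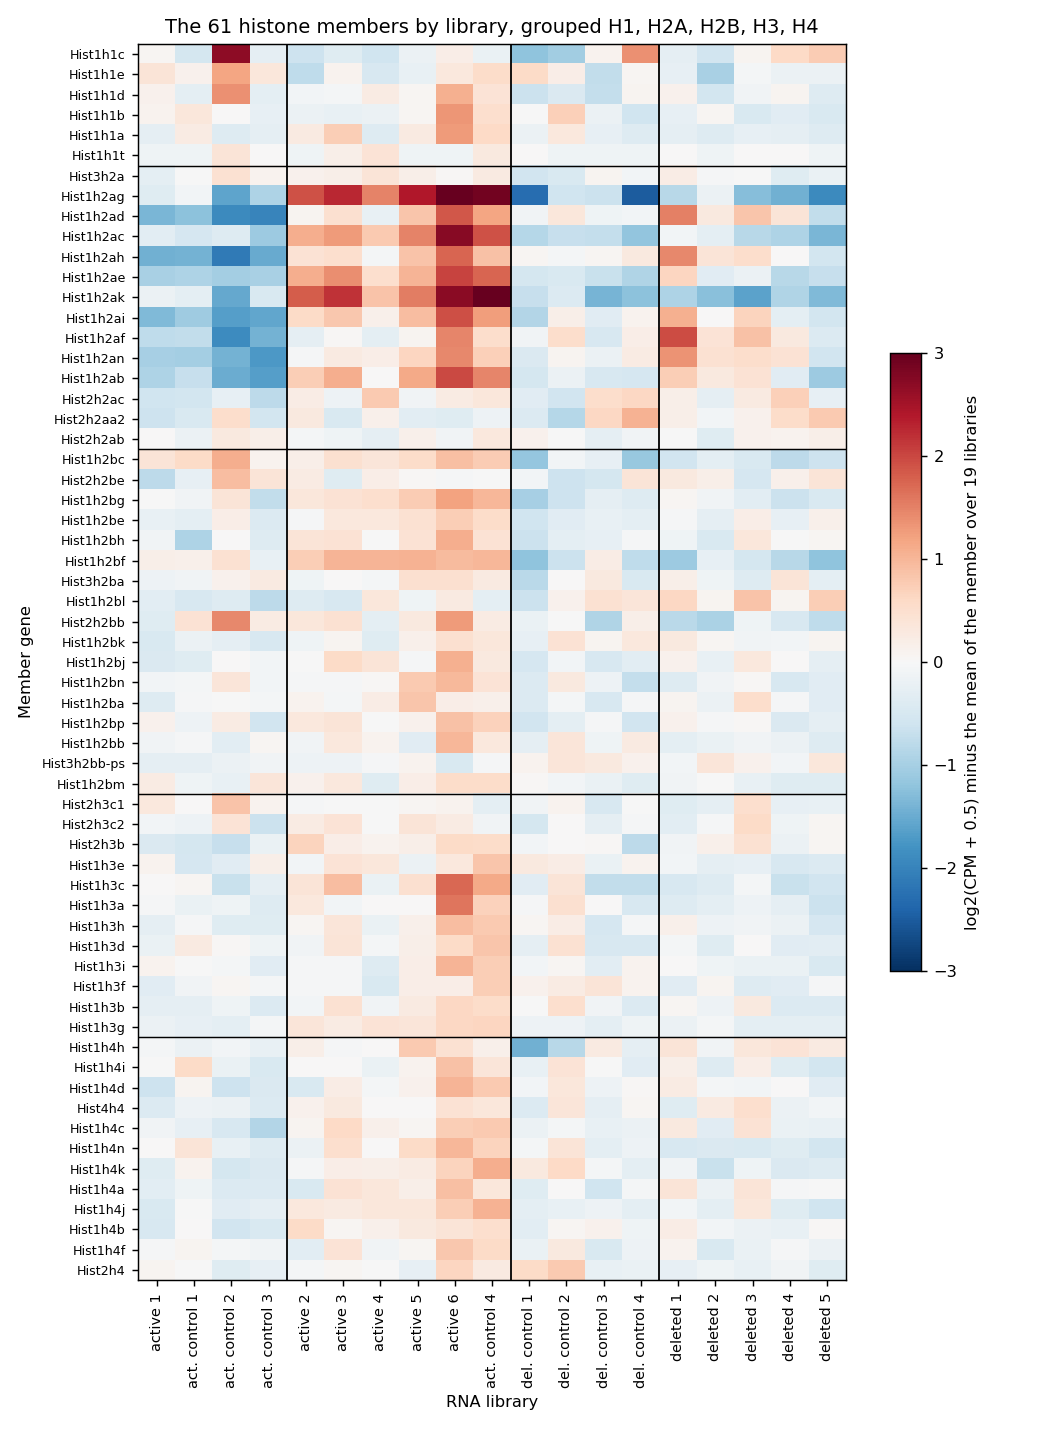
Level of each of the 61 members (vertical axis, grouped by class) in each RNA library (horizontal axis) as log2(CPM + 0.5) minus the member's mean over the 19 libraries; red is above and blue below that mean. The Hist1 H2A block is mostly red in the 6 libraries of the first column run (Yap active 2 to 6 and control 4) and near or below the mean in the 4 of the second, and Hist1h1c is deepest red in Yap active control 2.

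Members with a known polyadenylated form followed another order. Hist1h1c, linker histone H1.2, was 417 CPM in the library labelled Yap active control 2 and 44.7 to 55.5 CPM in the other 3 controls. In Yap active libraries it ran from 41.4 through a median of 53.1 to 73.3 CPM. In the Yap deleted table it was 53.4, 42.8, 67.9, 97.0 and 110 CPM in Yap deleted libraries and 27.5, 31.1, 69.0 and 166 CPM in controls. One library thus set the Yap active control mean of 142 ± 183 CPM (SD, n = 4), and the groups overlapped in both tables. That library also held the lowest Mki67 of its table (11.2 CPM) and the highest H1f0 of all 19 (1554 CPM), a replication-independent linker histone.

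Hist1h2bc, an H2B gene, differed between the tables more than between genotypes. It was 28.99 to 57.9 CPM in the 10 libraries of the Yap active table and 11.7 to 25.5 CPM in the 9 of the Yap deleted table. It was the only member whose levels did not overlap between the tables, where 0.32% of 18107 genes lay wholly higher in the Yap active table. The tables hold different floxed lines, so line and processing of a table cannot be told apart. Hist2h2be, also H2B, was 12.2 to 25.2 CPM in Yap active, 17.8 to 41.1 in its controls, 14.9 to 28.2 in Yap deleted and 13.7 to 27.9 in its controls, with overlap throughout.

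Hist3h2a, an abundant member, was at 40.9 ± 6.06 CPM (SD, n = 6) in Yap active, 43.7 ± 6.26 (SD, n = 4) in its controls, 35.9 ± 5.67 (SD, n = 5) in Yap deleted and 31.90 ± 6.96 (SD, n = 4) in its controls. The H3 genes Hist2h3c1 and Hist2h3c2 were 4.30 to 11.6 and 2.36 to 6.26 CPM over all libraries. Hist2h3c1 was highest in Yap active control 2 (11.6 CPM) and, within the Yap deleted libraries, in replicate 3 (8.98 CPM against 4.64 to 5.17 in the other 4). Hist1h2bg, an H2B gene, was 4.99 to 12.2 CPM in Yap active, 2.79 to 10.4 in controls, 3.003 to 5.24 in Yap deleted and 2.24 to 4.02 in controls.

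No member was called between Yap active and control libraries in edgeR's quasi-likelihood test with Benjamini-Hochberg adjustment over 15685 genes. The test called no gene at all, so a missing call does not show that a level was unchanged. The share of all genes called was 0%, and 12.6% had an unadjusted p under 0.05. Among members 2 of the 54 tested had such a p, both lower, where 5.98% of all genes had one with a lower and 6.65% with a higher level. DESeq2 called 18 genes and no member. In limma-voom with sample weights, which lets each library count by how variable it is, 8871 of 15685 genes were called (4479 higher, 4392 lower). It called 26 of 54 members (25 higher, 1 lower), with a member median of 0.96. The median log2 fold change of the 54 was 0.41, against -0.01 for all genes tested, with 42 above and 12 below 0. It was -0.094 with Rpph1 as a covariate (24 above, 30 below) and 0.13 with Mki67 as a covariate (33 above, 21 below). With the column run as a term it was -0.18 (13 above, 41 below). With no count filter the median over all 61 was 0.36. By class the Hist1 H2A members stood highest, at 0.36 to 1.40 on the log2 scale.

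The largest negative value with the smallest p was that of Hist1h1c, -1.36 ± 0.58 (log2 fold change ± SE, adjusted p = 0.366 by edgeR). Without the libraries labelled Yap active 1 and control 2 it was 0.06, and the median over members was 0.49. Hist1h1e, another linker histone, was 1.46 to 3.80 CPM with a median of 2.72 in Yap active and 3.13, 7.04, 3.67 and 4.32 CPM in controls, a log2 difference of -0.74 ± 0.32. Hist2h2be had -0.41 ± 0.26 by the same test. On the positive side Hist1h2bl was 0.325 to 0.955 CPM in Yap active (median 0.492) and 0.325, 0.378, 0.167 and 0.440 in controls, with a log2 difference of 0.86 ± 0.44. Hist1h2bh was 0.715 to 2.28 CPM (median 1.23) against 0.185, 0.810, 0.501 and 1.27, with 0.86 ± 0.52. Hist1h4h was 1.77 to 3.53 CPM (median 2.00) against 1.58, 1.73, 1.503 and 2.09, with 0.43 ± 0.27. All of these groups overlapped, and no member separated the 2 groups in either direction, where 0.519% of genes lay wholly higher and 0.48% wholly lower.

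Between Yap deleted and control libraries no member was called by the same test. The fit called 1 of 15818 genes (0.00632%), and 15.3% had an unadjusted p under 0.05. Of the 41 members tested 2 had such a p, both lower, where 9.18% of genes had one with a lower and 6.13% with a higher level. DESeq2 called 792 genes and limma-voom 0, and neither called a member. Their median log2 fold change was 0.28 against 0.01 for all genes, and over all 61 with no count filter it was 0.05. Without controls 1 and 2 it was 0.15.

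Hist1h3e, an H3 gene, was 0.481, 0.364, 0.380, 0.250 and 0.282 CPM in Yap deleted and 0.781, 0.705, 0.399 and 0.619 CPM in controls. Its log2 fold change was -0.85 ± 0.34 (adjusted p = 0.304 by edgeR). Hist1h4k, an H4 gene, was 0.0455 to 0.313 CPM against 0.217 to 0.813, with -1.33 ± 0.58 (adjusted p = 0.322 by edgeR). Hist2h2bb was 0.0455 to 0.456 CPM against 0.057 to 0.681, with -1.16 ± 0.76. In the other direction Hist1h4h was 2.55, 1.68, 2.49, 2.60 and 2.32 CPM in Yap deleted and 0.364, 0.813, 2.31 and 1.46 CPM in controls, with 0.91 ± 0.46. The low controls for Hist1h4h were replicates 1 and 2, the libraries with the most endothelial and leukocyte RNA. Hist1h2bj (0.75 ± 0.40) and Hist1h4a (0.92 ± 0.54) also had positive values, at 0.339 to 0.761 and 0.250 to 0.609 CPM in Yap deleted. Levels did not overlap for 2 members of 61, both lower in Yap deleted, where 1.35% of genes lay wholly lower and 2.33% wholly higher. They were Hist1h4n (0.113 to 0.200 against 0.228 to 0.678 CPM) and Hist1h3f (0.0254 to 0.227 against 0.248 to 0.399 CPM), with at most 8 and 10 counts in a Yap deleted library.

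The difference between the 2 lines' fold changes (Yap active minus Yap deleted, all 4 groups in one model) was called for 0 of 16308 genes (0%), and 6.47% had an unadjusted p under 0.05. DESeq2 called 17 genes, limma-voom 21, and neither called a member. Of the 57 members tested 1 had such a p, with a positive difference, where 4.56% of genes had one with a positive and 1.91% with a negative difference. It was Hist1h4n, at 1.74 ± 0.72 (log2 difference ± SE, adjusted p = 0.755 by edgeR). Hist1h3a had 2.22 ± 1.15 and Hist1h2bb 1.65 ± 0.91, while Hist2h2be had -0.70 ± 0.38, Hist1h1c -1.38 ± 0.86 and Hist3h2a -0.24 ± 0.22. Hist1h3a ran from 0.237 to 1.89 CPM in Yap active, its highest value in replicate 6, and was 0.0954 to 0.770 CPM in controls, 0 to 0.203 in Yap deleted and 0.0619 to 0.596 in its controls. Hist1h2bb ran from 0.0731 to 0.962, 0.081 to 0.413, 0.0565 to 0.178 and 0.104 to 0.434 CPM in the same order of groups.

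**Figure D3:**
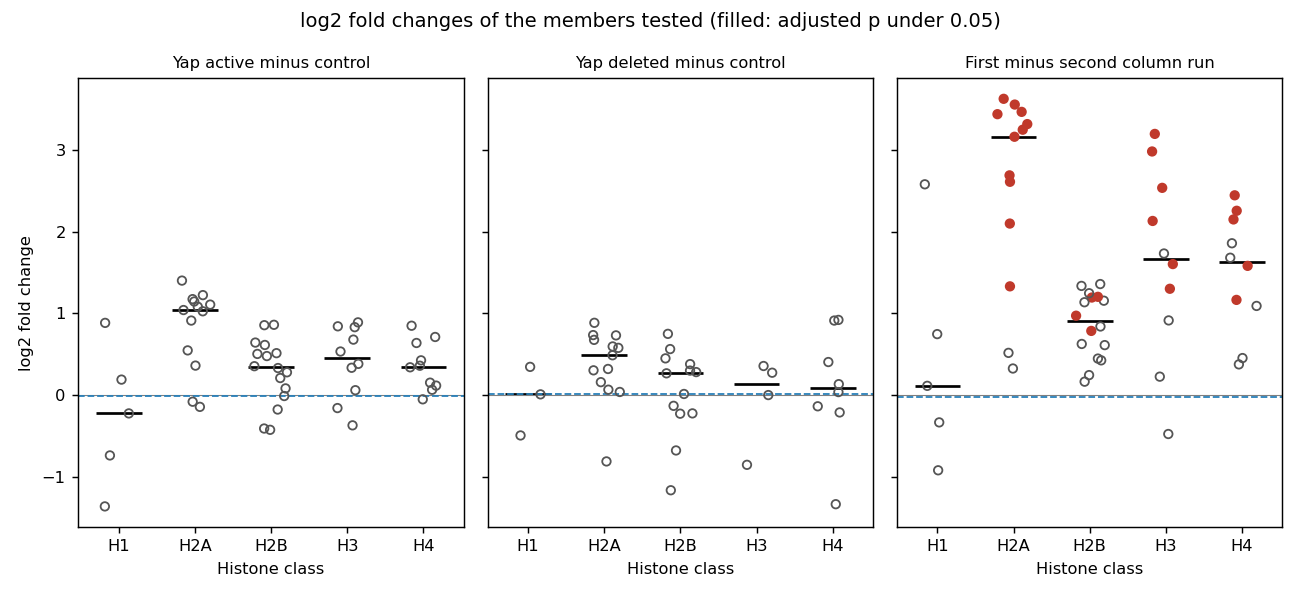
log2 fold changes (vertical axis) of the members tested, by histone class (horizontal axis), for Yap active minus control, Yap deleted minus control and first minus second column run; filled points passed adjusted p under 0.05, black bars are class medians and the dashed line is the median of all genes tested. No point is filled in the first 2 panels, and 26 are filled in the third.

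Histone levels differed between the 2 column runs of the Yap active table. This comparison was added after the data were seen. With group and column run as terms in edgeR, 26 of 54 members tested were called higher in the first run, where 22.6% of all genes were called higher and 21.1% lower. No member was called lower. The members' median difference was 1.27 on the log2 scale against -0.02 for all genes, and 51 of 54 lay above 0. With no count filter 24 of 61 were called, where 17.5% of all genes were called higher, and their median was 1.25. Every Hist1 H2A member was called, at 2.10 (Hist1h2af) to 3.62 (Hist1h2ak) on the log2 scale. The other members called were Hist2h2ac among H2A, Hist1h2be, Hist1h2bf, Hist1h2bg and Hist1h2bk among H2B, Hist1h3b, Hist1h3c, Hist1h3d, Hist1h3g, Hist1h3h and Hist2h3b among H3, and Hist1h4b, Hist1h4d, Hist1h4j, Hist1h4k and Hist4h4 among H4. No H1 gene was called. Values that missed the threshold among abundant members were 0.17 ± 0.23 for Hist1h2bc, 0.33 ± 0.15 for Hist3h2a, -0.47 ± 0.24 for Hist2h3c1 and -0.92 ± 0.82 for Hist1h1c (log2 difference ± SE). The H2B partner of a divergent pair had a smaller value than its H2A partner in each of the 7 pairs, for example 1.36 ± 0.55 for Hist1h2bj beside 3.55 ± 0.58 for Hist1h2ag (log2 difference ± SE).

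Leaving out a single library altered that count. It was 12 of 54 members without the library labelled Yap active 1, where 10.1% of all genes were called higher. It was 4 of 54 without Yap active control 4, where the 15.0% of all genes called higher was a larger share than the members'. By label, these 2 libraries place each genotype in both runs. Esr1 was 2.03 CPM in the library labelled Yap active 1 and 165 CPM in that labelled Yap active control 2. The separation of run from genotype thus rests on labels that Esr1 goes against. With Mki67 as a covariate 17 of 54 members were called higher, where 21.4% of all genes were called higher. In levels, 20 of 61 members lay wholly higher in the first run and 0 wholly lower, where 17.5% of all genes were wholly higher and 17.6% lower. These 20 were the 10 Hist1 H2A genes, Hist2h2ac, Hist1h2bf, Hist1h3b, Hist1h3g, Hist2h3b, Hist1h4b, Hist1h4c, Hist1h4h, Hist1h4j and Hist4h4. With the run in the model the members' median for Yap active minus control was -0.18, and within the first run alone, with 1 control, -0.29. Endothelial markers moved with the run, at 22.9 to 45.9 CPM summed in the first and 68.3 to 277 in the second. Markers of other cell types moved too. In the first run 5 of 8 AT2 and 3 of 3 club cell markers were called higher. Called lower were 4 of 6 macrophage, 3 of 4 neutrophil, 3 of 5 mesenchymal and 3 of 3 mesothelial markers. Of 4 lymphocyte markers 3 were called lower and 1 higher, and of 8 AT1 markers 1 lower and 2 higher. The part of these cell types in the histone difference was not tested.

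Rpph1, Rmrp and Pcna were called between the runs, while Mki67 did not pass the test and its levels overlapped. Rpph1 was 1.55 to 11.1 CPM in the first run and 0.325 to 0.492 in the second, a log2 difference of 4.28 ± 0.57 (adjusted p = 0.000661 by edgeR). Rmrp, another RNA without a poly(A) tail, had 4.23 ± 0.46 (adjusted p = 0.000313). Mki67 was 101 to 266 CPM in the first run and 124, 94.9, 11.2 and 48.1 in the second, with 1.17 ± 0.59 (adjusted p = 0.132 by edgeR). Pcna, the DNA polymerase clamp made in S phase, had 1.79 ± 0.35 and was called, at 85.7 to 254 against 33.8 to 47.2 CPM. Top2a, a gene of G2 and M phase, was 46.7 to 122 CPM in the first run and 6.10 to 42.0 in the second. All 22 genes listed for G2 and M phase, Mki67 among them, had positive run differences (median 1.43 on the log2 scale). Of these, 11 were called higher, so the missed threshold for Mki67 does not show that division was alike in the runs. The wider list of RNA without a poly(A) tail did not move as Rpph1 did. Only 44 of its 126 genes, mostly small nucleolar RNAs, passed the count filter. Of these 44, 3 were called higher and 5 lower, with a median of -0.09, where 22.6% of all genes were called higher and 21.1% lower.

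The ratio of the Hist1 H2A sum to Mki67 within a library gave 3 levels. The Hist1 H2A sum per unit of Mki67 was 0.0803, 0.115 and 0.120 in Yap active 1 and its controls 1 and 3, and 0.129 and 0.168 in Yap deleted controls 1 and 2. These 5 libraries had Mki67 of 48.1 to 124 CPM and Pecam1, an endothelial marker, of 15.1 to 308 CPM. The ratio was 0.302 to 0.523 in the first run and 0.425 in Yap active control 2. It was 0.747 to 1.64 in the 5 Yap deleted libraries and their controls 3 and 4. Pcna per unit of Mki67 was 0.296 to 0.713 in the 5 low libraries and 0.512 to 1.02 in the first run, with overlap. It was 1.66 to 8.45 in the 7 of the Yap deleted table, and 3.01 in Yap active control 2, within that range. Whether dividing endothelial cells, dividing leukocytes or capture set the low ratios was not tested.

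**Figure D4:**
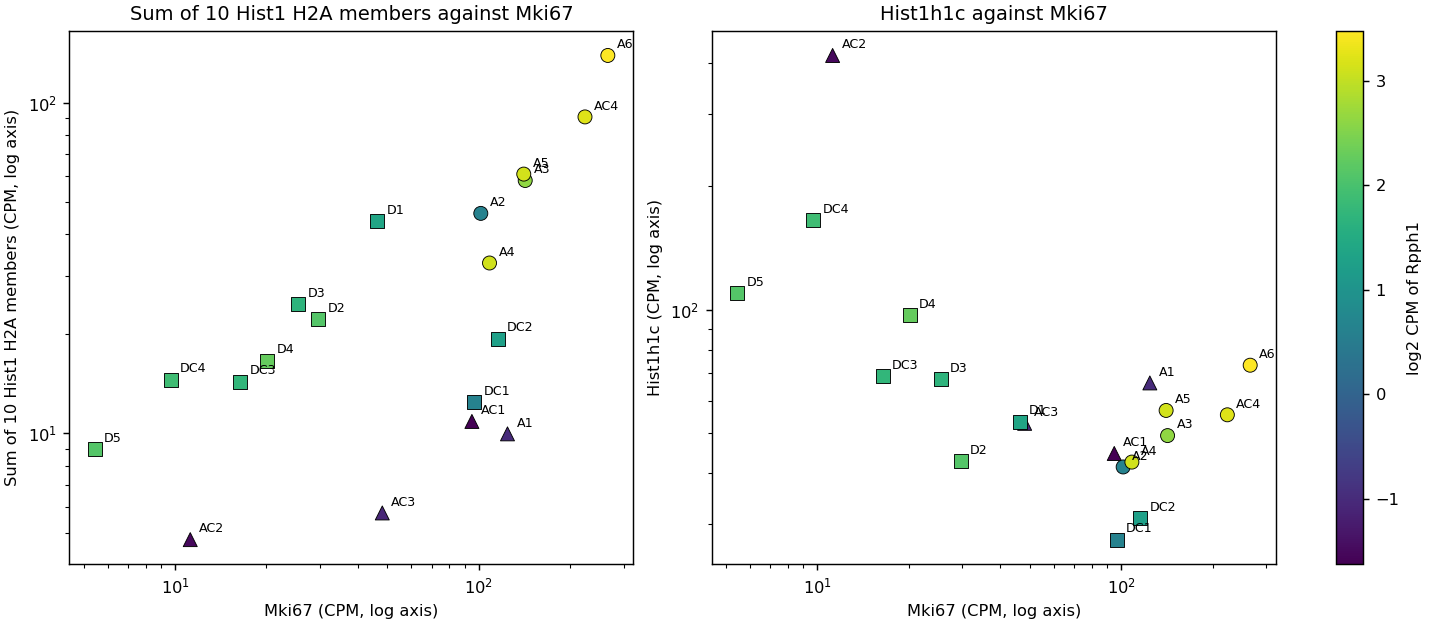
Hist1 H2A sum (left) and Hist1h1c (right) against Mki67 in each RNA library, CPM on log axes; colour is log2 CPM of Rpph1, triangles are the second and circles the first run of the Yap active table, squares the Yap deleted table (A active, AC its control, D deleted, DC its control). At a like Mki67 of 94.9 to 124 CPM the Hist1 H2A sum ranges from 9.97 to 46.3 CPM, and Hist1h1c is highest where Mki67 is low.

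Because Rpph1 and Mki67 fall into separate clusters of libraries, correlations were taken only within 2 sets, the first run (6 libraries) and the Yap deleted table without controls 1 and 2 (7 libraries). Over log2(CPM + 0.5) in the first run, members had a median Pearson r of 0.83 with Mki67 and 44 of 61 exceeded 0.7, against 12.4% of all genes. With Rpph1 the median was 0.43 and 9 exceeded 0.7, against 3.85%. In the Yap deleted set the medians were 0.40 with Mki67 (11 of 61 over 0.7, 8.41% of all genes) and -0.30 with Rpph1 (0 of 61, 4.87%). Mki67 and Rpph1 themselves had r = 0.65 and -0.48 in the 2 sets. The libraries share depth and scaling. None of the 244 relations passed adjustment by exact permutation tests, whose smallest adjusted p was 0.0847. With 6 or 7 libraries the number of orderings limits how small such a p can be. A relation that missed the threshold is therefore not shown to be absent.

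Single members show the contrast. In the first run Hist1h2ag had r = 0.95 and Spearman rho = 0.89 with Mki67 (exact permutation p = 0.00556, adjusted 0.0968, and rho p = 0.0333, two-sided), and r = 0.82 without Yap active 6 and control 4. Its r with Rpph1 was 0.48 and rho 0.83 (exact permutation p = 0.333, adjusted 0.623, and rho p = 0.0583), and r = 0.90 without Yap active 2 and 3. Hist1h1c had r = 0.91 and rho = 0.83 with Mki67 in the first run (exact permutation p = 0.0111, adjusted 0.118, and rho p = 0.0583) and 0.91 without the same pair. In the Yap deleted set its r was -0.78 and rho -0.89 (exact permutation p = 0.0373, adjusted 0.195, and rho p = 0.0123), and r = -0.89 without Yap deleted 1 and 5. The sign for Hist1h1c thus differed between the sets, a difference that was not tested.

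Genes that serve histone supply were read from lists chosen with earlier results of these data known. Of 25 S phase genes all had positive values for Yap active minus control (median 0.99 on the log2 scale, 0 called), and 6 of 25 did for Yap deleted (median -0.11, 0 called). For the column run 19 of 25 were called higher and 0 lower. Of 22 genes of G2 and M phase all were positive in Yap active (median 0.69, 0 called) and 11 were called higher for the run. Group and column run coincide in part, and genotype values with the run as a term were not taken for these lists. The 12 genes of histone transcription and message processing gave 0 calls in either genotype comparison, and 3 higher and 2 lower for the run, near the shares of all genes called (22.6% higher, 21.1% lower). Slbp was 18.0 to 28.7 CPM in Yap active and 18.7 to 23.0 in controls, with a run difference of 0.02 ± 0.17 on the log2 scale. Npat, the coactivator of histone gene transcription, was called lower in the first run, at -0.47 ± 0.10 (adjusted p = 0.00509 by edgeR). Casp8ap2, its partner in the histone locus body, was called lower as well, at -0.48 ± 0.14.

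Of 8 histone chaperones 3 were called higher in the first run and 1 lower, where 22.6% of all genes were called higher and 21.1% lower, and none in the genotype comparisons. The assembly factor subunits Chaf1a and Chaf1b had 0.71 ± 0.24 and 1.73 ± 0.21 for the run, and the H3-H4 chaperone Asf1b 1.80 ± 0.50 (log2 difference ± SE). Of 11 genes listed as replication-independent histones, 5 were called higher in the first run and 0 lower. H2afx had 1.61 ± 0.26 and Cenpa, the centromeric H3, 1.67 ± 0.54. The run difference was 0.15 ± 0.23 for H2afz and -0.43 ± 0.22 for H3f3b, neither of them called. H3f3b was 552 to 799 CPM in Yap active and 592 to 1297 CPM in controls.

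The near-identical Hist1 H2A genes also divided their shared counts differently in the 2 tables. Hist1h2ag took 19.2 to 38.5% of Hist1 H2A counts in the 10 libraries of the Yap active table and 1.70 to 15.5% in the 9 of the Yap deleted table. Hist1h2ad took 5.81 to 8.93% in the first and 15.9 to 23.1% in the second. Hist1h2ac took 11.03 to 35.03% and 4.44 to 8.60%, without overlap. Hist1h2ak took 1.69 to 15.6% and 0.207 to 4.40%, and Hist1h2af 2.26 to 8.30% and 7.75 to 18.5%, both with overlap. These genes differ little in sequence, so how reads were assigned among them is uncertain and a single gene's level is less certain than the sum. The split was described after it was seen and has no test.

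**Figure D5:**
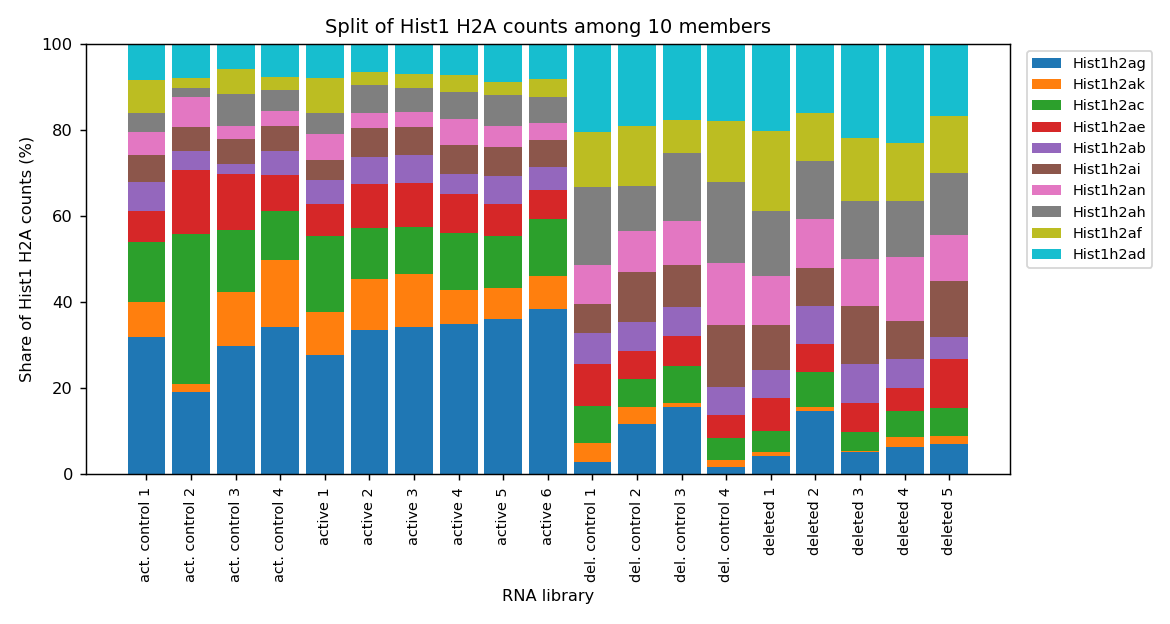
Share (%) of the counts of 10 Hist1 H2A members taken by each member (stacked bars) in each RNA library (horizontal axis), by group. Hist1h2ag (lowest segment) takes 19.2 to 38.5% in the Yap active table and 1.70 to 15.5% in the Yap deleted table, and Hist1h2ad (top segment) is larger in the latter.

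The genes most like the family were sought by Pearson r of log2 CPM over the 19 libraries after group means were removed, among 14276 genes, with no test. For the sum of all members they were 2810001G20Rik (0.90), H1f0 (0.89), Tmem243 (0.89), Gadd45g (0.88), Eif4h (0.86), Ctage5 (0.86), 1700001G17Rik (0.86), Syf2 (0.86), Gmeb2 (0.85) and 9330133O14Rik (0.84), while Mki67 had -0.47 and Rpph1 0.35. That sum is led by Hist1h1c in control 2. For the sum outside Hist1h1c, Hist1h2bc and Hist2h2be the first were 1110034G24Rik (0.96), Cdc25b (0.95), Cstb (0.95), Mpdu1 (0.94) and Mrps33 (0.93). In that version Pcna had 0.90, Rpph1 0.75 and Mki67 0.35.

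Chromatin was described from the authors' lists of regions opened or closed in Yap active or Yap deleted cells, which carry no value per library. The Yap active opened list (6017 regions) named 12 members as nearest gene of 13 regions, and 11 of the regions lay within 1000 bases of the start site. The closed list of that line and both lists of the Yap deleted line named no member. Among the authors' region scores the highest for a member was 110.85, for chr13:23760702-23762268 at the promoter of Hist1h4a (mm10), which ranked 921 in the list. It was followed by regions at Hist1h4c (91.15), Hist1h2be (75.25), Hist1h1c (65.3) and Hist1h4h (59.9). The members named were 4 H4, 3 H3, 3 H2B, 1 H1 and 1 H2A gene.

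By position, a region of the Yap active opened list lay within 1000 bases of the start of 14 of 55 members with a RefSeq start site, where 10.9% of 27025 genes had one. The same count was 0 of 55 for the closed list (0.355% of genes), 1 for the Yap deleted opened list (0.366%) and 0 for its closed list (0.178%). Neighbouring members share regions, so these counts are not of independent sites. The RNA of Hist1h4a was 0.119 to 1.09 CPM in Yap active and 0.135 to 0.578 CPM in its controls, and that of Hist1h4c 0.358 to 1.03 and 0 to 1.07 CPM. Neither passed the test between groups.

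The authors' 4 peak lists for the Yap active line differed within a condition as well as between conditions. In the first Yap active list a peak lay within 1000 bases of the start of 50 of 55 members, against 39.8% of genes, and in the second of 18, against 22.4%. In the first control list, which has the most peaks (345109), the count was 1 of 55 against 21.2% of genes, and in the second 2 against 7.66%. With peaks of -log10 p of 3 or more the counts were 29, 2, 0 and 0 of 55, against 19, 4.96, 2.15 and 1.57% of genes. The highest fold enrichment at a member's start in the first Yap active list, the authors' own value per peak, was 3.67 for Hist1h1c, and it was 2.47 for both Hist1h2ag and Hist1h2bj, the divergent pair printed above. The sources do not state whether a list was called against the other condition, so a missing peak is not evidence of closed chromatin.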

How the data were processed

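RNA was sequenced as 150-base paired reads from poly(A)-selected libraries, per the labels' protocols. The authors deposited raw counts per gene in 2 tables. Trim Galore, Bowtie2, Cufflinks, DESeq and HOMER are named per the submitters' processing notes, without versions, and strand and the assignment of reads among paralogs are not given in the sources used here. Region lists carry a score deposited by the authors, and broad peak lists carry the authors' fold ratio and -log10 p per peak (mm10). Of the gene names deposited, 27 read as calendar dates and 2 names occur more than once.

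Counts were tested with edgeR 4.0.16 in R 4.3.3 (TMM, filterByExpr, robust quasi-likelihood F-test, Benjamini-Hochberg adjustment at 0.05), per line over its own libraries and in 1 model for the difference. Alternatives were RLE scaling, total counts, no filter, DESeq2 1.42.0, limma 3.58.1 (voom with sample weights), a replicate block, Rpph1 or Mki67 as covariate and leaving out libraries. The column-run term, the first run alone and the stricter peaks were chosen after seeing the data. CPM served for levels, and log2(CPM + 0.5) for correlations. The per-line edgeR fits were also run on simulated counts with the same replicate spread for every gene and no run effect or outlier library. That setting does not cover the spread seen in these libraries. Start sites were overlapped with regions by bedtools 2.31.1 (1000 bases either side, at least 1 base shared). Depth was 31947748 to 43544559 counts per library, so a member with few counts is imprecise.

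The members and lists were chosen with earlier results of these data known. The rule for named members took the 8 with the highest mean CPM, the 3 smallest p-values in each direction per comparison, members called in any comparison, the most abundant of each class and those with known polyadenylated forms.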

Additional observations from a re-analysis of the deposited data

Results flagged for a closer look

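In groups of 4 to 6 libraries, a library was singled out where its gap to the nearest other, divided by the group's range, exceeded Dixon's critical value. This held for 8 of 56 groups examined over 14 quantities, and chance gives about 1 in 20. Hist1h1c was 417 CPM in the library labelled Yap active control 2 (nearest 55.5). In Yap active control 4, Hist1h2ag was 31.0 CPM (nearest 3.48), the Hist1 H2A sum 90.5 CPM (nearest 10.9) and Rpph1 9.35 CPM (nearest 0.477). Mki67 was 266 CPM in Yap active 6 (nearest 142). Hist2h3c1 was 7.85 CPM in the library labelled Yap active 1 (nearest 6.67) and 8.98 CPM in Yap deleted 3 (nearest 5.17). The summed level outside Hist1h1c, Hist1h2bc and Hist2h2be was 67.4 CPM in Yap deleted control 1 (nearest 87.5).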

How the results depend on the processing

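Over the settings other than leaving out 1 library, 337 results kept their direction and side of the threshold or moved by less than the replicate spread, 23 reversed, 12 moved, 13 became stronger and 4 weaker. With 1 library left out the counts were 485, 12, 3, 4 and 8. The cause of each change was not tested.

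For Yap active the number of genes called was 18 by DESeq2, 8871 by limma-voom, 13 without the libraries labelled active 1 and control 2, 2 in the first column run alone and 0 to 2 with 1 library left out. Members called were 26 of 54 by limma-voom, where 8871 of 15685 genes were called. The member median was 0.96 by limma-voom, -0.094 with Rpph1 as a covariate and 0.13 with Mki67 as a covariate. It was -0.18 with the column run, -0.29 in the first run alone and 0.17 to 0.98 with 1 library left out (without control 3 and control 4). For Yap deleted the genes called were 2 on total counts, 792 by DESeq2, 0 by limma-voom, with the replicate block or with Rpph1, and 0 to 4 with 1 library left out (4 without control 4). The median was 0.049 with no filter and 0.11 to 0.37 with 1 library left out. For the difference the genes called were 17 by DESeq2, 21 by limma-voom and 0 to 3 with 1 library left out. Its median was 0.71 by limma-voom, 0.076 with Rpph1, -0.060 with Mki67 and 0.13 to 0.94 with 1 library left out. Correlations of same-numbered deviations were 0.03 to 0.57 and -0.26 to 0.49. Differently numbered libraries were not compared, so these values cannot decide whether replicate numbers pair the libraries. With the replicate block 0 genes were called in each comparison, and the member medians were 0.23, 0.27 and 0.18.

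Outside Hist1h1c, Hist1h2bc and Hist2h2be the mean summed levels were 152, 119, 97.1 and 83.0 CPM in Yap active, its controls, Yap deleted and its controls. With 1 library left out the sum over all members was 237 to 280, 233 to 380, 209 to 221 and 160 to 215 CPM in that order. Members called higher for the column run were 17 with Mki67 (21.4% of all genes) and 4 to 26 with 1 library left out. The 4 members without control 4 stood beside 15.0% of all genes, a larger share than theirs.

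Signs reversed for these log2 values. In Yap active, Hist1h1c was 0.056 without active 1 and control 2 and -1.66 to 0.12 with 1 library left out, Hist1h2bc 0.023 by limma-voom and 0.018 without that pair, and Hist2h2be 0.039 in the first run alone. Mki67 was -0.57 there, and Rpph1 -0.38 there and -0.11 with the run term. In Yap deleted, Hist1h1c was -0.017 with RLE, -0.0046 on total counts, -0.017 by DESeq2, -0.50 with Rpph1, -0.15 with Mki67, -0.69 without controls 1 and 2, and -0.26 to 0.76 with 1 library left out. Hist1h2bc was -0.015 with RLE, -0.061 on total counts, -0.015 by DESeq2, -0.016 with Rpph1, and -0.17 to 0.26 with 1 library left out. Mki67 was 0.30 with Rpph1 and 0.95 without controls 1 and 2. For the difference Hist1h1c was 0.15 with Mki67, 0.72 without Yap active 1, its control 2 and Yap deleted controls 1 and 2, and -2.16 to 0.11 with 1 library left out, and Hist3h2a was 0.14 and Mki67 -0.65 without those 4 libraries. Total-count scaling moved the all-gene median for Yap active from -0.01 to -0.14. Depth limits the 15 members with under 200 counts, whose values rest on few reads in a library.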
